A study of Mus musculus with 16 samples.

Results

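The nuclear-encoded respiratory chain genes were followed in 16 microarrays of primary mouse podocytes. The set was fixed by name and holds 47 genes, of which 42 code for structural subunits of complexes I to V or for cytochrome c and 5 code for regulators of mitochondrial biogenesis. The rule uses names and no measured value, but the members were chosen with earlier results of these data known. A probe could be assigned to 46 of them, and all 46 passed the filter on dim probes, among 14094 tested genes. Cox5b, a subunit of complex IV, had no probe assigned by accession. Of the subunits, 41 were therefore tested.

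The respiratory chain carries electrons from NADH and succinate to oxygen through complexes I to IV in the inner mitochondrial membrane, pumps protons, and lets complex V make ATP from the gradient. Most of its subunits are encoded in the nucleus, and their transcription is known to depend on DNA-binding factors such as NRF1 and YY1 together with coactivators of the PGC-1 family. The tuberous sclerosis protein TSC2 restrains the kinase complex mTORC1, which rapamycin inhibits, and mTORC1 is known to raise mitochondrial gene expression, in part through YY1 and PGC-1α. Podocytes, the epithelial cells of the glomerular filter, use both glycolysis and oxidative phosphorylation.

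The study asked how loss of Tsc2 in podocytes alters their gene expression and what rapamycin does to it. Male Jcl:ICR mice carried 2 floxed Tsc2 alleles, and in Tsc2Δpodocyte mice these were recombined by a Cre transgene restricted to podocytes, while Tsc2flox/flox controls had no Cre. Glomeruli were isolated with magnetic beads, podocytes grew out of them in culture, and RNA was hybridised to 1-colour Agilent arrays. There were 4 arrays in each of 4 groups: both genotypes untreated at 4 weeks of age, and both genotypes at 5 weeks of age after 1 week of rapamycin. The study injected rapamycin into the mice and describes none in the culture medium. Treated cells, podocytes or samples are therefore those grown from treated mice. The labels do not say whether the 4 samples of a group came from separate mice, so p-values measure the spread between these samples. The untreated groups shared 1 slide and the rapamycin groups the other, so rapamycin, age and slide cannot be told apart. On each slide 1 genotype filled the first row and the other the next, so genotype cannot be told apart from row either. Fewer cells of a type and less RNA per cell cannot be told apart in such bulk samples.

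Levels are given as log2 of the background-subtracted intensity minus log2 of that array's 75th percentile, so 0 stands for the 75th percentile of the array and negative values for dimmer probes. Different probes were set against each other only to rank genes by brightness, and were combined in summed or averaged levels of a list. A summed level is log2 of the sum of the unlogged levels of a list's tested genes, so the brightest probes weigh most. The 75th percentile lay between 349 and 468 intensity units, no spot was saturated, and arrays of 1 group correlated at 0.978 to 0.992 across probes. Tsc2 itself read 2.07, 1.99, 2.31 and 1.93 in untreated Tsc2Δpodocyte samples and 3.61, 3.40, 2.95 and 3.71 in Tsc2flox/flox samples. It was lower by genotype in untreated cells (log2 fold change -1.35, limma adjusted p = 0.00097) and after rapamycin (-0.99, adjusted p = 0.0124), in the direction of the labels. All 10 podocyte markers passed the filter on dim probes. Their summed level ranged from 6.44 to 7.65 in untreated Tsc2Δpodocyte and from 5.92 to 6.65 in untreated Tsc2flox/flox samples on the log2 scale, and from 6.48 to 7.71 and 6.27 to 6.86 after rapamycin, and Wt1 and Synpo were detected on every array. Nphs1, which codes for nephrin, was dim, at -5.08 to -0.87, and was above background on 3 of 4 untreated Tsc2Δpodocyte arrays.

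Promoters of 35 members, 31 of them subunit genes, were in the RefSeq table of mouse build GRCm38.p6. Each was searched on both strands, from 250 bases before to 50 after the start, for words read by NRF1, YY1, GABP and other ETS factors, and estrogen-related receptors. The NRF1 word GCGCATGCG occurred in 4 of the 31 subunit promoters (12.9%), against 3.73% of the 11171 tested genes with a promoter and 1.75% of all promoters in the table. These 4 belonged to Ndufa8, Cycs, Uqcrc1 and Cox6a1. The word of GABP and other ETS factors, CCGGAAGT, occurred in 2 (Ndufs3 and Cox8a, 6.45%, against 8.43% of tested genes) and in Tfam. AAGATGGCG, read by YY1, occurred in 2 (Ndufa9 and Ndufs7, 6.45%, against 3.3%), and AAGGTCA, read by estrogen-related receptors, in 1 (Sdhd, 3.23%, against 3.94%). A match is a string of letters and not a measured binding site. The stretches of 250 bases before the start are shown for the members whose NRF1 word lies there and for Tfam, because the values of these genes and of Nrf1 itself are given below. Capitals mark the word. It begins 9 bases before the start in Ndufa8 and 61 before it in Cycs, on the other strand in both, and 162 before it in Cox6a1, where copies on both strands overlap. In Tfam the ETS word begins 47 bases before the start, and in Uqcrc1 both overlapping copies of the NRF1 word lie after it.
Ndufa8 promoter, chr2:36049339-36049588, minus strand: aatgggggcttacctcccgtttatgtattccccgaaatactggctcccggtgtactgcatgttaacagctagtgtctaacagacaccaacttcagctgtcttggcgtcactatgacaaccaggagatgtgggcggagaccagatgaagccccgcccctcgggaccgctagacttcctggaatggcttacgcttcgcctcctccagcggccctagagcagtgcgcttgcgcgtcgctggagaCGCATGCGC
Cycs promoter, chr6:50566570-50566819, minus strand: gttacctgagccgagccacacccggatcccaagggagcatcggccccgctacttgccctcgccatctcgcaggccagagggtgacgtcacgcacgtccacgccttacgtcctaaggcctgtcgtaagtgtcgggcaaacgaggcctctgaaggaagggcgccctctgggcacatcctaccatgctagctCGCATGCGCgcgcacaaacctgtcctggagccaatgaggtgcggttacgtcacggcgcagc
Cox6a1 promoter, chr5:115348959-115349208, minus strand: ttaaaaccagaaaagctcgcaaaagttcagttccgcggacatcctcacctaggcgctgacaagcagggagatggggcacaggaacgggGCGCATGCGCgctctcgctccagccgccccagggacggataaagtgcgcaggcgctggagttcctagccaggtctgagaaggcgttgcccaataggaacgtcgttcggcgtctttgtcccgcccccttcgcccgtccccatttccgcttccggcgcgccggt
Tfam promoter, chr10:71238045-71238294, minus strand: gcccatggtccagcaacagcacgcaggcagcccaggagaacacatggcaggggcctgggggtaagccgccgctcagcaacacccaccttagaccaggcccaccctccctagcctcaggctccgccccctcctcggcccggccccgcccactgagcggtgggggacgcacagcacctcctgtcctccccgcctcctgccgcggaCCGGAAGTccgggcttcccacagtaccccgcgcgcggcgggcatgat

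Between the untreated genotypes, 12 of the 46 members were higher in Tsc2Δpodocyte podocytes and 1 was lower at a limma adjusted p under 0.05, and 33 did not pass. Across all tested genes the shares were 10.3% higher and 9.20% lower. Those that rose were 10 subunits, by 1.18- to 1.43-fold, and the coactivator genes Ppargc1a and Ppargc1b, while the mitochondrial transcription factor gene Tfam fell. The members' median log2 fold change was 0.13, beside -0.01 over all tested genes. Of the 41 subunits, 40 had a fold change above 0 and 19 had all 4 Tsc2Δpodocyte values above all 4 Tsc2flox/flox values, a separation found in 13.5% of all tested genes, as was the reverse. The level of the subunits averaged per array was 5.31, 5.37, 5.27 and 5.30 in Tsc2Δpodocyte samples and 5.12, 5.21, 5.12 and 5.12 in Tsc2flox/flox samples. The 4 averages of one genotype did not overlap those of the other.

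After rapamycin, 10 members were higher in Tsc2Δpodocyte than in Tsc2flox/flox podocytes and 0 were lower by limma, against 6.20% higher and 4.97% lower over all tested genes. At an unadjusted p under 0.05, 19 members were higher and 1 was lower, beside 14.7% and 12.6% of all tested genes. The rise covered 9 subunits, by 1.19- to 1.37-fold, and Ppargc1b. A rise or fall after rapamycin stands for this genotype difference among treated samples, except where treated and untreated groups are compared. The median over the members was 0.17, beside 0.01 over all tested genes, and 39 of the 41 subunits were above 0. In 18 subunits the 4 values did not overlap, beside 10.7% of all tested genes. At a fold of at least 1.5 besides the adjusted p, Ppargc1a and Ppargc1b were called untreated and Ppargc1b after rapamycin, and no subunit was, against 6.18% and 2.97% of all tested genes higher and 3.85% and 2.61% lower. Only Ndufs8, Sdhc and Ppargc1b passed in both genotype comparisons, while 40 members had a positive fold change in both. The heat map of all members by array shows the subunits as a group of small shifts and the coactivators as larger ones.

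**Figure D1:**
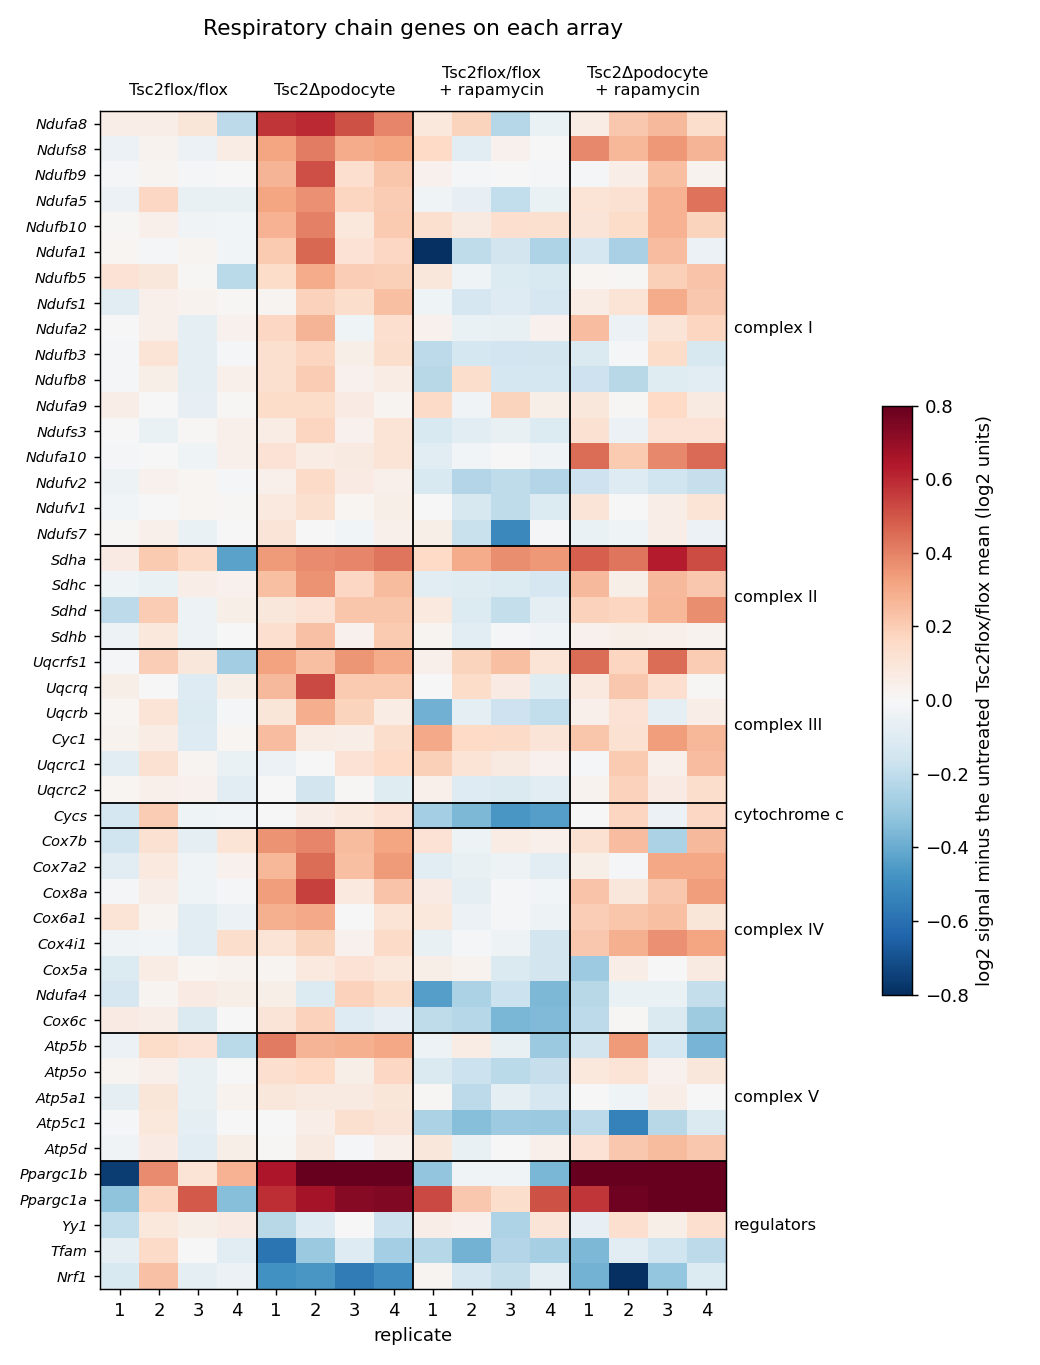
Level of each of the 46 tested members (rows, grouped by complex) on each of the 16 arrays (columns, grouped by genotype and treatment), drawn as log2 level minus the mean of the 4 untreated Tsc2flox/flox arrays. Colours saturate at 0.8 in either direction. Most subunit rows are shifted upwards in untreated Tsc2Δpodocyte columns, and the coactivator gene Ppargc1b is the row with the clearest contrast between genotypes in both treatments.

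These counts depended on how the arrays were scaled. All 41 subunits lay in the brightest 20% of tested genes, 2819 genes. Among those, 14.5% of genes were higher and 7.09% lower between the untreated genotypes, with a median of 0.04, whereas 24.4% of the subunits were higher, with a median of 0.14. After rapamycin 8.80% of these bright genes were higher and 3.26% lower, with a median of 0.06, and 22.0% of the subunits were higher, with a median of 0.17. With quantile normalisation, which forces the same distribution on every array, the median of the bright genes was -0.03 untreated and -0.01 after rapamycin, and that of the subunits was 0.06 and 0.11. Under that scaling the members higher in untreated cells numbered 5 (Ndufa8, Ndufs8, Sdhc, Ppargc1a and Ppargc1b) in place of 12, the members lower 0, and the subunits above 0 numbered 29 in place of 40. The 3 subunits among these were 7.32% of the subunits, under the 10.8% of bright genes and 10.6% of all tested genes called higher with that scaling. After rapamycin 7 members stayed higher (Cox4i1, Cycs, Ndufa10, Ndufs1, Ndufs8, Sdhc and Ppargc1b), and 28 subunits in place of 39 were above 0. These 6 subunits were 14.6%, beside 6.95% of bright genes and 6.37% of all tested genes. The comparison with the brightest genes was added after the values were seen.

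**Figure D2:**
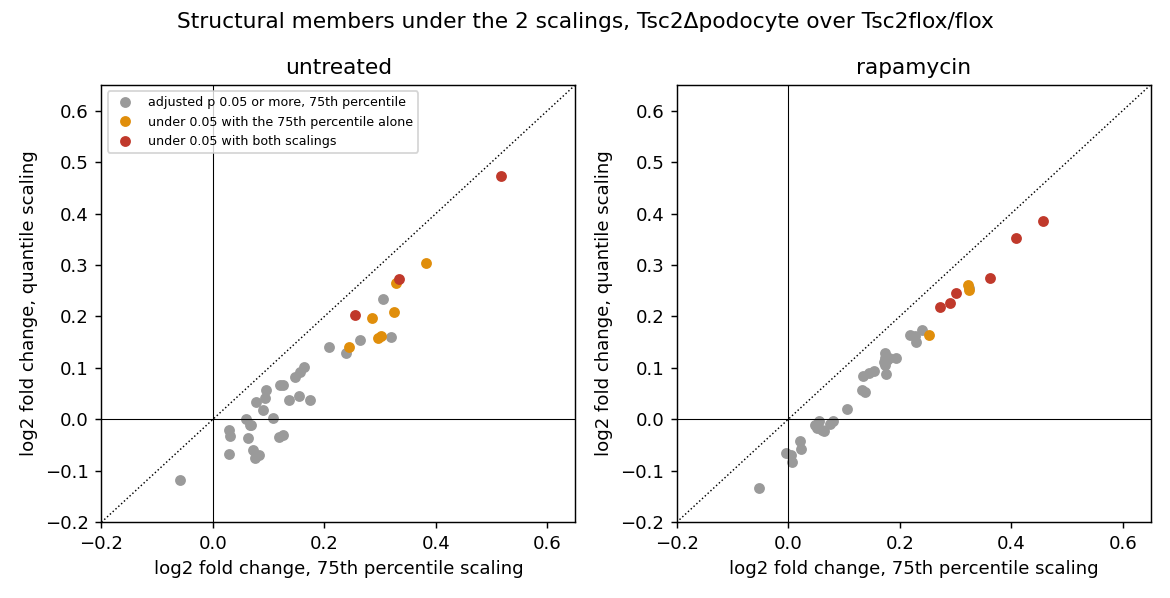
Log2 fold change of each tested subunit between genotypes under 75th percentile scaling and under quantile normalisation, for podocytes of untreated and of rapamycin-treated mice. The points move down together under quantile normalisation, from 40 to 29 of 41 above 0 in untreated cells and from 39 to 28 after rapamycin.

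Single libraries also moved the counts. For each genotype comparison, 8 of the 16 omissions left out an array of the other treatment, which changes only the shared estimate of the spread. The number of members higher in untreated Tsc2Δpodocyte cells was 12 with all arrays, 3 without Tsc2Δpodocyte replicate 2 (Ndufa8, Ndufs8 and Ppargc1b), 4 without Tsc2flox/flox replicate 1, 6 without Tsc2Δpodocyte replicate 4 or Tsc2flox/flox replicate 4, and 7 without Tsc2Δpodocyte replicate 1 or Tsc2flox/flox replicate 3. Tfam lost its call in 11 of the 16 omissions. After rapamycin the count of 10 fell to 5 without replicate 3 or replicate 4 of the treated Tsc2flox/flox group. Only the untreated calls of Ndufa8 and Ndufs8, and the calls after rapamycin of Ndufa10, Cycs, Cox4i1 and Ppargc1b, passed in all 16 omissions and in all 12 other settings tried that set no fold limit. With a fold of at least 1.5 none of these subunits was called. In untreated cells the call of Ppargc1b passed in 16 of 16 omissions and 10 of those 12 settings.

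Complex I, the NADH dehydrogenase, contributed 17 members. In untreated cells 4 rose and all 17 fold changes were above 0, between 0.03 and 0.52 with a median of 0.14, and after rapamycin 4 rose and 15 were above 0, with a median of 0.15. Ndufa8, an accessory subunit, read 3.74, 3.76, 3.67 and 3.56 in untreated Tsc2Δpodocyte and 3.22, 3.22, 3.26 and 2.96 in Tsc2flox/flox samples. Every value of the first group lay above every value of the second, with a log2 fold change of 0.52 ± 0.10 (SE, n = 4 per group, limma adjusted p = 0.00321). After rapamycin its values overlapped, at 3.23, 3.38, 3.42 and 3.30 against 3.25, 3.34, 2.93 and 3.11, and the difference of 0.17 did not pass (adjusted p = 0.288). Among the 41 tested subunits of the set it had the largest rise in untreated cells, and its promoter is among those printed above.

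Ndufs8, a core iron-sulfur subunit of complex I, read 4.89, 4.98, 4.87 and 4.89 against 4.53, 4.60, 4.53 and 4.63 untreated. With rapamycin it read 4.96, 4.84, 4.92 and 4.85 in Tsc2Δpodocyte against 4.73, 4.49, 4.61 and 4.57 in Tsc2flox/flox samples. The genotypes did not overlap in either treatment, with fold changes of 0.33 ± 0.07 (adjusted p = 0.00533) and 0.29 ± 0.07 (adjusted p = 0.0190). The exact permutation test over samples gave p = 0.0286, the smallest that 4 against 4 can give, as it did for each of the 13 members called in untreated and the 10 called in treated cells. Ndufb9, an accessory subunit of the membrane arm, read 5.42, 5.67, 5.29 and 5.38 against 5.15, 5.18, 5.14 and 5.15 and rose by 0.28 ± 0.08 (adjusted p = 0.0316). Ndufb10, of the same arm, rose by 0.24 ± 0.07 in untreated cells (adjusted p = 0.0352). After rapamycin Ndufb9 and Ndufb10 differed by 0.07 and 0.06 (adjusted p = 0.629 and 0.66).

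Ndufa10, an accessory subunit, passed after rapamycin. Untreated it read 3.99, 3.93, 3.94 and 3.99 in Tsc2Δpodocyte and 3.87, 3.88, 3.84 and 3.91 in Tsc2flox/flox samples, a difference of 0.09 that did not pass (adjusted p = 0.381) although the values did not overlap. With rapamycin it read 4.32, 4.08, 4.26 and 4.33 against 3.79, 3.86, 3.87 and 3.85, a rise of 0.41 ± 0.07 (adjusted p = 0.00381). A second Ndufa10 probe gave 0.19 untreated (adjusted p = 0.0849) and 0.22 with rapamycin, which did not pass (adjusted p = 0.0718). Among treated samples Ndufa5, another accessory subunit, was also higher in Tsc2Δpodocyte, by 0.32 (adjusted p = 0.0352). Ndufs1, the large iron-sulfur subunit, was higher there by 0.27 (adjusted p = 0.0335). A second Ndufa5 probe gave 0.13 after rapamycin and did not pass (adjusted p = 0.385). The untreated differences of these were 0.26 (adjusted p = 0.057) and 0.15 (adjusted p = 0.183). The remaining complex I members passed in neither genotype comparison.

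Complex II, succinate dehydrogenase, links the citrate cycle to the chain and is wholly nuclear-encoded. All 4 of its genes were above 0 in both comparisons, with medians of 0.21 untreated and 0.26 after rapamycin, and 2 passed in each. Sdhc, a membrane anchor, read 3.71, 3.83, 3.64 and 3.73 against 3.44, 3.42, 3.53 and 3.51 untreated, and 3.73, 3.52, 3.73 and 3.69 against 3.39, 3.38, 3.37 and 3.34 with rapamycin. The groups did not overlap, and it rose by 0.25 ± 0.07 (adjusted p = 0.0232) and 0.30 ± 0.07 (adjusted p = 0.0166). Sdha, the flavoprotein that oxidises succinate, read 4.24, 4.28, 4.29 and 4.33 against 3.97, 4.11, 4.05 and 3.48 untreated. Its rise of 0.38 ± 0.12 (adjusted p = 0.0357) was 0.24 without Tsc2flox/flox replicate 4, the lowest sample, where it no longer passed (adjusted p = 0.0660), and the call held in 10 of 16 omissions. Each omission that lost the Sdha call left out an untreated array. A second Sdha probe gave 0.49 (adjusted p = 0.0347). Sdhd, the other anchor, read 4.79, 4.78, 4.87 and 4.98 against 4.69, 4.50, 4.42 and 4.53 with rapamycin and rose by 0.32 (adjusted p = 0.0418). Sdhb, the iron-sulfur subunit, passed in neither comparison, at 0.15 untreated (adjusted p = 0.117) and 0.06 after rapamycin (adjusted p = 0.583).

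Complex III, the cytochrome bc1 complex, passes electrons from ubiquinol to cytochrome c, and 1 of its 6 members passed. Uqcrq, a small subunit, read 6.91, 7.17, 6.85 and 6.85 in untreated Tsc2Δpodocyte and 6.69, 6.65, 6.54 and 6.69 in Tsc2flox/flox samples, and rose by 0.30 ± 0.09 (adjusted p = 0.0295) without overlap. With rapamycin its difference was 0.08 (adjusted p = 0.617). Uqcrfs1, the Rieske iron-sulfur protein, read 4.23, 4.16, 4.27 and 4.21 against 3.90, 4.11, 4.00 and 3.63, and the difference of 0.30 ± 0.10 did not pass (adjusted p = 0.0544). The core protein gene Uqcrc2 was the 1 subunit below 0 untreated, at -0.06 (adjusted p = 0.593), and was 0.17 after rapamycin (adjusted p = 0.13). Uqcrb, a small subunit that binds near the ubiquinone site, differed by 0.16 (adjusted p = 0.217) and 0.24 (adjusted p = 0.0866). Uqcrc1, whose promoter holds the NRF1 word after the start, differed by 0.06 (adjusted p = 0.655).

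Cycs, which codes for the mobile carrier cytochrome c, read 5.76, 5.80, 5.83 and 5.87 in untreated Tsc2Δpodocyte and 5.61, 5.95, 5.72 and 5.73 in Tsc2flox/flox samples, which overlap, and the difference of 0.06 ± 0.09 did not pass (adjusted p = 0.65). With rapamycin it read 5.75, 5.92, 5.71 and 5.92 in Tsc2Δpodocyte and 5.48, 5.39, 5.28 and 5.31 in Tsc2flox/flox samples. The genotypes then stood apart, with a rise of 0.46 ± 0.09 (adjusted p = 0.00699). A second, dimmer probe gave 0.27 in that comparison and did not pass (adjusted p = 0.263).

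Complex IV, cytochrome c oxidase, had 8 tested members, all above 0 in both comparisons. Cox7a2, the ubiquitous isoform of a small subunit, read 5.77, 5.95, 5.75 and 5.85 against 5.42, 5.58, 5.48 and 5.54 untreated and rose by 0.33 ± 0.09 (adjusted p = 0.0190), with no overlap. Cox7b, another small subunit, read 4.93, 4.96, 4.82 and 4.88 against 4.41, 4.69, 4.49 and 4.68 and rose by 0.33 ± 0.11 (adjusted p = 0.0492), a call that held in 3 of 16 omissions of an array. Cox8a, the ubiquitous isoform of the smallest subunit, read 7.17, 7.38, 6.92 and 7.06 against 6.83, 6.89, 6.80 and 6.83 and rose by 0.30 ± 0.09 (adjusted p = 0.0391), a call that held in 6 of 16. With an untreated array left out, the Cox7b call was always lost and the Cox8a call held only without Tsc2Δpodocyte replicate 3. Cox7a2, Cox7b and Cox8a did not pass after rapamycin, at 0.23 (adjusted p = 0.106), 0.05 (adjusted p = 0.812) and 0.23 (adjusted p = 0.13).

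Cox4i1, the common isoform of the largest nuclear-encoded subunit, was higher in Tsc2Δpodocyte among treated samples. It read 6.73, 6.80, 6.88 and 6.83 in treated Tsc2Δpodocyte and 6.46, 6.51, 6.48 and 6.37 in treated Tsc2flox/flox samples, a rise of 0.36 ± 0.07 (adjusted p = 0.00803). Untreated the values overlapped (6.63, 6.69, 6.55 and 6.67 against 6.49, 6.49, 6.43 and 6.65) and the difference was 0.12 (adjusted p = 0.263). Cox6a1, whose promoter is printed above, differed by 0.17 (adjusted p = 0.154) and 0.19 (adjusted p = 0.147). Ndufa4, once counted with complex I and now with complex IV, differed by 0.07 (adjusted p = 0.633) and 0.18 (adjusted p = 0.222).

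Complex V, the ATP synthase, had 5 members and none passed in untreated cells by limma, where 1 had an unadjusted p under 0.05 and the fold changes ran from 0.03 to 0.32. That member was Atp5b, the catalytic beta subunit, which read 7.59, 7.44, 7.45 and 7.48 against 7.13, 7.32, 7.29 and 6.95. Its brightest probe gave 0.32 ± 0.13 (adjusted p = 0.114), while its other probes gave 0.47 (adjusted p = 0.00732) and 0.15 (adjusted p = 0.182). After rapamycin the brightest Atp5b probe gave 0.0056 (adjusted p = 0.986), and the others 0.30 (adjusted p = 0.0767) and 0.27 (adjusted p = 0.0383). Among treated samples Atp5o, a subunit of the peripheral stalk, was higher in Tsc2Δpodocyte, by 0.25 ± 0.06 (adjusted p = 0.0184). It read 6.36, 6.39, 6.31 and 6.37 there against 6.16, 6.10, 6.06 and 6.09 in Tsc2flox/flox samples. The untreated difference on that probe was 0.13 (adjusted p = 0.165), and a second probe gave 0.51 (adjusted p = 0.0282). Of 18 further probes of 16 members, 16 had the sign of the brightest probe untreated and 15 had it after rapamycin, and 5 and 2 of them passed. Among all 27579 tested probes 4968 passed untreated and 2839 after rapamycin, in either direction.

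**Figure D3:**
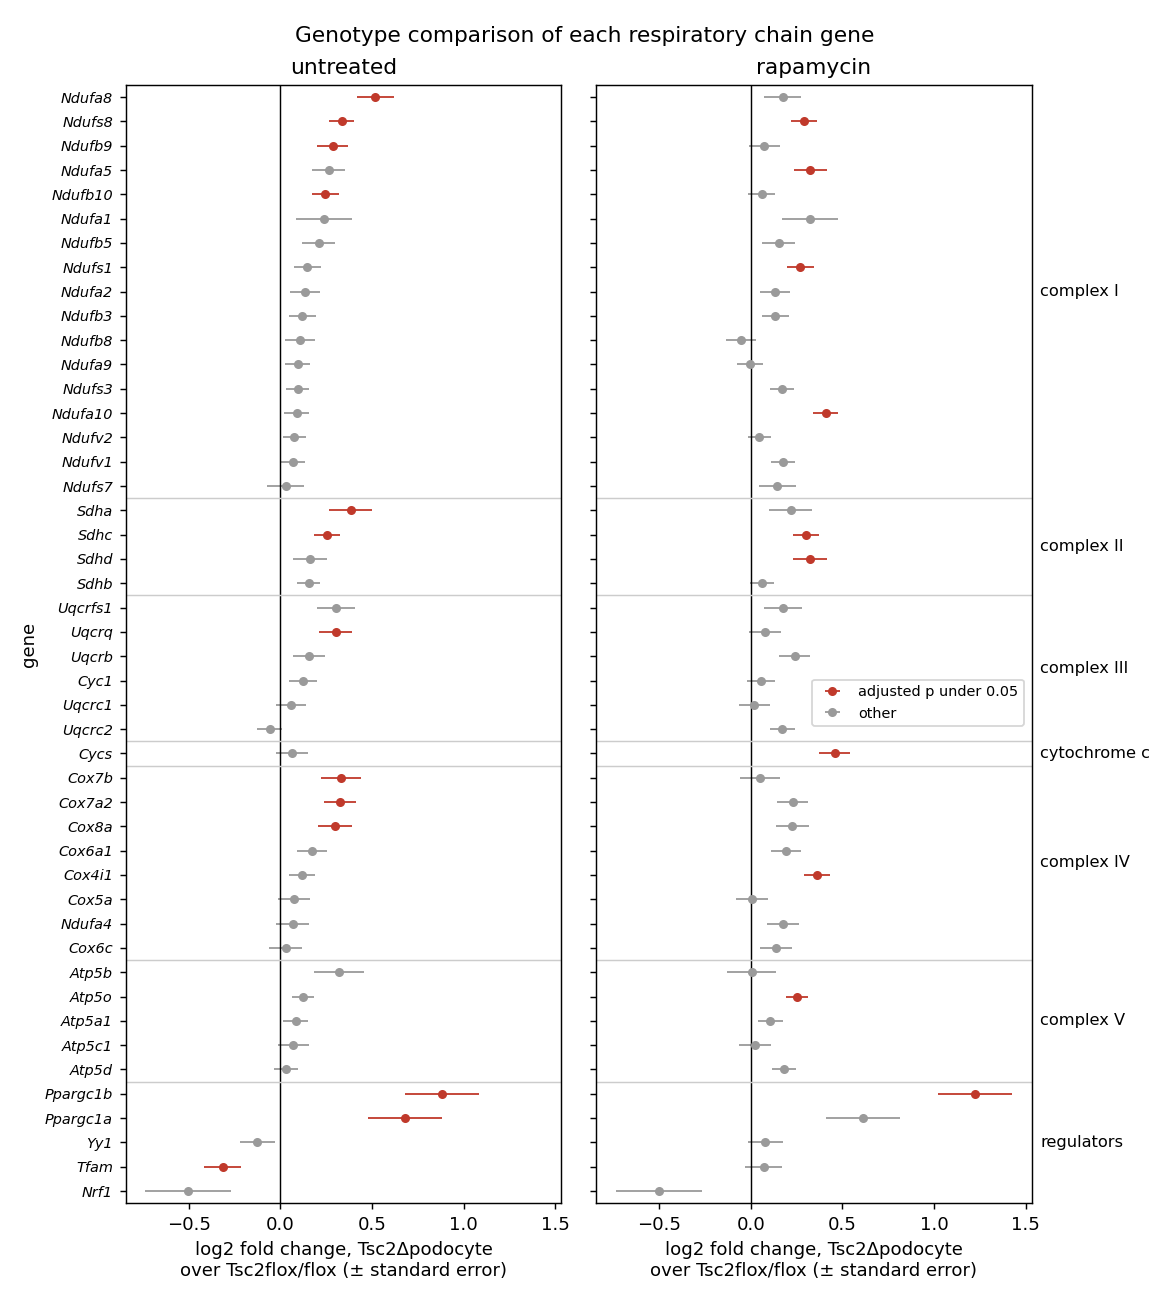
Log2 fold change of each tested member, Tsc2Δpodocyte over Tsc2flox/flox, in podocytes of untreated (left) and rapamycin-treated mice (right), with bars for ± 1 standard error from limma and red for an adjusted p under 0.05. Subunits cluster just above 0 in both panels, and Ppargc1b lies farthest right in both, at 0.88 and 1.22.

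The 5 regulators moved in different directions. Ppargc1b codes for PGC-1β, a coactivator of mitochondrial genes. It read -0.41, -0.26, -0.10 and 0.07 in untreated Tsc2Δpodocyte and -1.82, -0.68, -0.95 and -0.78 in Tsc2flox/flox samples, and -0.18, 0.06, -0.03 and 0.08 against -1.37, -1.08, -1.08 and -1.42 with rapamycin. Neither pair of groups overlapped, and it rose 1.84-fold (log2 0.88 ± 0.20, adjusted p = 0.00895) and 2.33-fold (log2 1.22 ± 0.20, adjusted p = 0.00383). A second probe gave log2 fold changes of 0.97 (adjusted p = 0.0115) and 0.99 (adjusted p = 0.0175). Among the members it had the largest difference in both comparisons.

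Ppargc1a, which codes for the related coactivator PGC-1α, read -1.43, -1.36, -1.30 and -1.28 against -2.34, -1.85, -1.53 and -2.36 untreated. It rose 1.60-fold (log2 0.68 ± 0.20, adjusted p = 0.0309). With rapamycin it read -1.45, -1.25, -0.99 and -0.56 against -1.49, -1.81, -1.88 and -1.52, again without overlap, and the difference of 0.61 did not pass (adjusted p = 0.0655). A second probe gave 0.63 untreated and did not pass (adjusted p = 0.302).

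Tfam, which packages and transcribes mitochondrial DNA, was the 1 member that fell. It read 0.85, 1.14, 1.33 and 1.17 in untreated Tsc2Δpodocyte and 1.36, 1.59, 1.44 and 1.35 in Tsc2flox/flox samples, all of the former below all of the latter. The log2 fold change was -0.31 ± 0.10 (adjusted p = 0.0445), and a second probe gave -0.30 (adjusted p = 0.0187). The call of the first probe held in 5 of 16 omissions of an array and in 5 of 12 other settings, and was lost under quantile normalisation. With an untreated array left out, it held only without Tsc2Δpodocyte replicate 3. With rapamycin Tfam read 1.08, 1.34, 1.28 and 1.23 against 1.21, 1.06, 1.20 and 1.17, a difference of 0.07 (adjusted p = 0.705).

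Nrf1, which codes for nuclear respiratory factor 1, read 0.54, 0.56, 0.47 and 0.53 in untreated Tsc2Δpodocyte and 0.91, 1.26, 0.96 and 0.98 in Tsc2flox/flox samples. The values did not overlap, but the difference of -0.50 ± 0.23 did not pass (adjusted p = 0.149). On that probe Tsc2Δpodocyte + Rapamycin replicate 2 stood low, at -0.56 where the other 3 samples of its group lay between 0.65 and 0.92. That library is outside the untreated comparison, was named for its low value, and was not flagged by Dixon's test. Without it the untreated difference was the same and passed (adjusted p = 0.00272), because only the shared spread changed, so this is given as a description. The difference after rapamycin was then -0.17 (adjusted p = 0.297) in place of -0.50 (adjusted p = 0.19). The other Nrf1 probes both gave -0.10 untreated. Yy1, a zinc-finger factor that works with PGC-1α, read 2.49, 2.61, 2.72 and 2.55 against 2.52, 2.80, 2.76 and 2.78, and its differences of -0.13 (adjusted p = 0.387) and 0.08 (adjusted p = 0.655) did not pass.

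**Figure D4:**
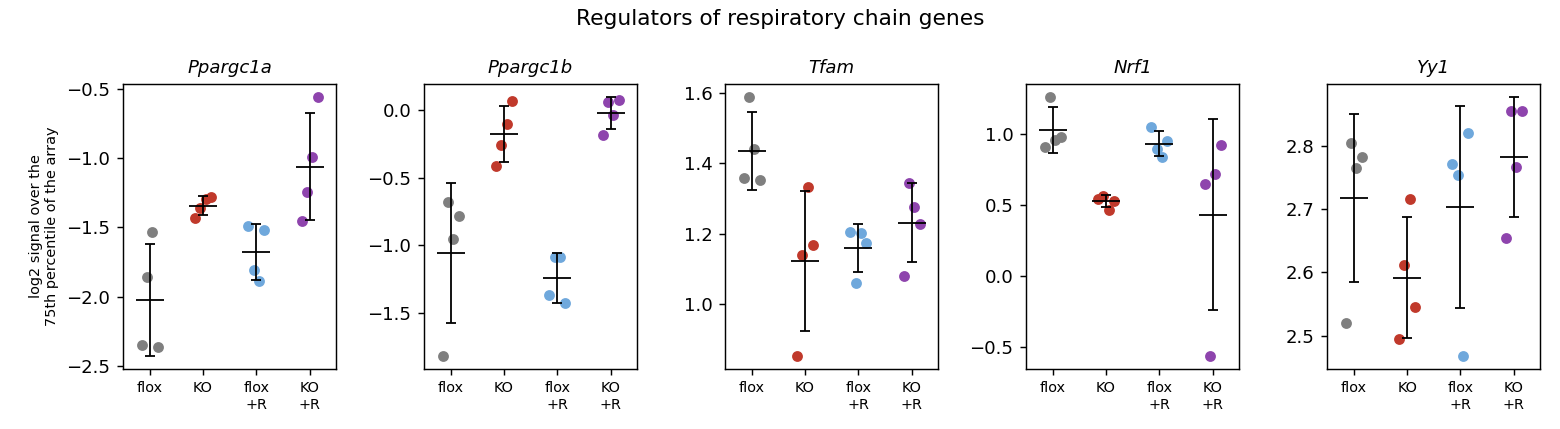
Level of the 5 regulators in every sample (points) with the group mean ± SD (lines), on the log2 scale relative to the array's 75th percentile; flox is Tsc2flox/flox, KO is Tsc2Δpodocyte and +R is rapamycin. Ppargc1b is higher in both Tsc2Δpodocyte groups without overlap, and the single low Nrf1 point of the rapamycin-treated Tsc2Δpodocyte group is replicate 2, at -0.56.

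Whether the genotype difference changed with rapamycin was tested as the interaction of genotype and treatment. By limma 0 members passed in either direction, as did 0% of all tested genes, and 6 members had an unadjusted p under 0.05, 5 higher and 1 lower, beside 4.01% and 3.38% of all tested genes. Of these, Ndufa10 (0.32, adjusted p = 0.615), Cycs (0.39, adjusted p = 0.623), Cox4i1, Uqcrc2 and Tfam had a larger value after rapamycin, and Ndufa8 (-0.34, adjusted p = 0.664) a smaller one. On the second probes of Ndufa10 and Cycs the interaction was 0.03 in both. With normexp background correction 3 members passed, beside 0.106% of all tested genes higher and 0.0284% lower, Uqcrc2 (0.59, adjusted p = 0.0302), Cycs (0.83, adjusted p = 0.0302) and Atp5o (0.50, adjusted p = 0.0398), and in the other settings fitted 0 did. The Atp5o value was -0.054 on the mean of its probes. A member that passed in 1 genotype comparison and not in the other is therefore not shown to differ between treatments by the main test.

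Within a genotype the members were compared between the rapamycin and untreated groups, where age and slide also differ. In Tsc2flox/flox podocytes 0 members passed by limma, against 0.106% of all tested genes higher and 0.0568% lower, and the members' median was -0.07 beside 0.00. At an unadjusted p under 0.05, 2 members were higher and 10 lower, beside 8.25% and 7.61% of all tested genes. With normexp 4 were lower (Uqcrb, Cycs, Atp5c1 and Atp5o), beside 1.97% of all tested genes lower and 1.60% higher. Cycs had the smallest p, at -0.38 (adjusted p = 0.0769), with all 4 treated values below all 4 untreated ones, as in 5.21% of all tested genes, while its second probe gave -0.11 (adjusted p = 0.752). The smallest p of the other complexes belonged to Ndufv2 (-0.20, adjusted p = 0.15), Sdha (0.29, adjusted p = 0.244), Uqcrb (-0.21, adjusted p = 0.257), Ndufa4 (-0.31, adjusted p = 0.132) and Atp5c1 (-0.29, adjusted p = 0.137).

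In Tsc2Δpodocyte podocytes 1 member rose and 1 fell with rapamycin, against 1.97% of all tested genes higher and 1.53% lower, and the median was -0.05 beside 0.01. Ndufa10 rose by 0.28 ± 0.07 (adjusted p = 0.0365), but by 0.01 on its second probe, which did not pass (adjusted p = 0.934). Atp5c1, the central stalk subunit of the ATP synthase, fell by 0.34 on the log2 scale (adjusted p = 0.0455). Atp5c1 read 6.16, 6.21, 6.28 and 6.26 untreated and 5.95, 5.62, 5.93 and 6.04 with rapamycin, and in the Tsc2flox/flox groups 6.15, 6.24, 6.08 and 6.16 and then 5.91, 5.82, 5.87 and 5.86. Treated values lay below untreated ones in both genotypes, as they did within Tsc2Δpodocyte for 6.40% of all tested genes. The call of Atp5c1 held in 2 of 16 omissions of an array and that of Ndufa10 in 7. Ndufv2 (-0.23, adjusted p = 0.0541), Ndufa8 (-0.35, adjusted p = 0.0664) and Atp5b (-0.40, adjusted p = 0.105) did not pass. The other Atp5b probes gave -0.25 (adjusted p = 0.172) and 0.0087 (adjusted p = 0.958).

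Subunits outside the set were counted complex by complex. Over all tested genes 10.3% were higher and 9.20% lower untreated, and 6.20% and 4.97% after rapamycin. With quantile normalisation these shares were 10.6%, 9.71%, 6.37% and 5.51%. Of 19 other complex I subunits, 5 rose untreated (median 0.17) and 2 after rapamycin, with Ndufv3 (0.68, adjusted p = 0.00446), Ndufc1 (0.35, adjusted p = 0.0175) and Ndufb7 (0.25, adjusted p = 0.0197) having the smallest p, and with quantile normalisation 2 and 1 rose. Of 12 other complex V subunits and companions, 4 rose untreated (Atp5j, 0.31, adjusted p = 0.0195; Atp5k, 0.45, adjusted p = 0.022; Atp5g1, 0.33, adjusted p = 0.025; and Atp5j2) and 0 after rapamycin by limma, but with quantile normalisation 0 rose and Atp5g2 and Atpif1 fell. Of 3 other complex III subunits, Uqcr11 rose untreated (0.32, adjusted p = 0.0216), a call lost with quantile normalisation, and Uqcr10 after rapamycin (0.40, adjusted p = 0.00516). Of 3 other common complex IV subunits, Cox7c was higher in Tsc2Δpodocyte among treated samples (0.27, adjusted p = 0.0321).

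Complex IV also has isoform genes that are best known from other tissues or from low oxygen. Of 8 such genes 6 passed the filter on dim probes. For Cox6a2 and Cox7b2 all 4 arrays of a group were above background in the Tsc2Δpodocyte groups only, so that a difference was built into their passing and no count over the list is given. Cox7a1, the heart and muscle isoform of Cox7a2, read 0.79, 1.76, 0.81 and 0.73 in untreated Tsc2Δpodocyte and -1.21, -0.82, -0.69 and -0.84 in Tsc2flox/flox samples, and 0.43, 0.25, 0.82 and 0.24 against -0.64, -0.48, -0.42 and -0.56 with rapamycin. The groups did not overlap, and it rose 3.76-fold (log2 1.91 ± 0.21, adjusted p = 9.32e-05) and 1.94-fold (log2 0.96 ± 0.21, adjusted p = 0.0115). Without Tsc2Δpodocyte replicate 2, the highest sample, the untreated value was 1.67 (adjusted p = 6.21e-05). The interaction for Cox7a1, at -0.95, did not pass (adjusted p = 0.623).

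Ndufa4l2, the relative of Ndufa4 that HIF1 is known to induce, read -0.18, 2.67, 0.10 and 0.07 against -4.69, -2.29, -2.91 and -2.42 untreated. The probe was above background on 3 of 4 untreated Tsc2flox/flox arrays. The probe was dim, and the fitted difference was 3.74 ± 0.71 on the log2 scale (adjusted p = 0.0031), or 3.08 (adjusted p = 0.00769) without Tsc2Δpodocyte replicate 2. With rapamycin it read -0.40, -1.76, -1.05 and -1.71 against -3.24, -3.60, -0.94 and -2.57, with overlap, and 1.36 did not pass (adjusted p = 0.245). The fitted log2 difference untreated was 1.94 for Cox6a2, the muscle partner of Cox6a1, and 1.66 for Cox7b2, a partner of Cox7b known from testis. These are given as a description, with no test. Their probes were above background on 3 and 2 of 4 untreated Tsc2flox/flox arrays. Cox4i2, the partner of Cox4i1 known from lung and low oxygen, differed by 0.27 untreated (adjusted p = 0.0559), passed with quantile normalisation (0.31, adjusted p = 0.032), and fell by 0.41 with rapamycin in Tsc2Δpodocyte cells (adjusted p = 0.033). Cox6b2 did not pass (-0.03, adjusted p = 0.95), and Cox8b and Cox8c were not well above background on any array.

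**Figure D5:**
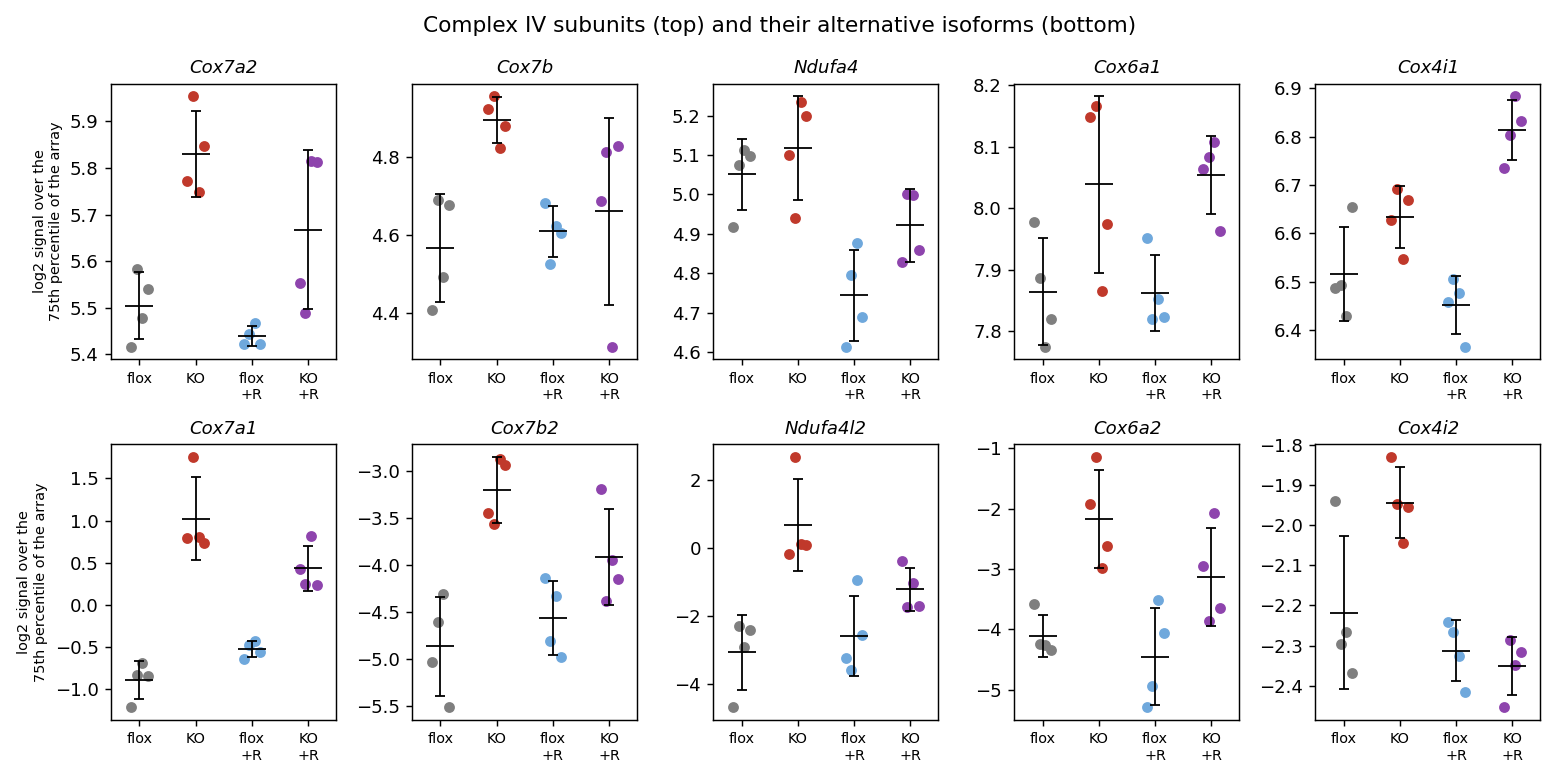
Common complex IV members (top) and their isoform partners of certain tissues or of low oxygen (bottom) in every sample, with points for arrays and lines for the mean ± SD, on the log2 scale relative to the array's 75th percentile. flox is Tsc2flox/flox, KO is Tsc2Δpodocyte and +R is rapamycin. Cox7a1 stands apart by genotype in both treatments, and Tsc2Δpodocyte replicate 2 is the high point of Cox7a1 (1.76) and Ndufa4l2 (2.67).

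Genes known as HIF1 targets with links to respiration were read beside these isoforms. In a list of 10 that includes Ndufa4l2 and Cox4i2, 9 rose untreated (median 0.67) and 3 after rapamycin, beside 10.3% and 6.20% of all tested genes. That list was chosen with earlier results of these data known, so its counts are a description. Pdk1, the kinase that shuts off pyruvate dehydrogenase, rose by 2.88 (adjusted p = 9.18e-05) and 1.88 (adjusted p = 0.00356), and Bnip3, a mitophagy receptor, by 2.41 (adjusted p = 0.000479) and 1.90 (adjusted p = 0.00573). Lonp1, a mitochondrial protease, rose by 0.66 untreated (adjusted p = 0.000919). Tsc2Δpodocyte replicate 2 had the highest average over the list, at 3.50 where the other 3 lay between 2.59 and 2.69, and without it 6 of 10 rose (median 0.55). The same library was the highest of its group in the subunit average given above (5.37), and the part of these genes in the members' values was not tested.

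Genes that build or feed the chain were counted beside the same shares, 10.3% of all tested genes higher and 9.20% lower untreated and 6.20% and 4.97% after rapamycin. Of the assembly factors 13.3% were called untreated and 17.8% after rapamycin, and of the carriers and import genes 6.25% untreated. Of 45 tested assembly factors 6 rose untreated and 8 after rapamycin, with medians of 0.09 and 0.13, among them Uqcc2 of complex III (0.47, adjusted p = 0.00376), Coa5 of complex IV (0.52, adjusted p = 0.00532, and 0.76, adjusted p = 0.00178) and the copper chaperone Cox17 (0.38, adjusted p = 0.0097). Of 17 citrate cycle and pyruvate dehydrogenase genes 3 rose untreated (Sucla2, 0.60, adjusted p = 0.0157; Ogdh, 0.41, adjusted p = 0.0166; Mdh2, 0.26, adjusted p = 0.036) and 2 after rapamycin. Among 7 other donors of electrons to ubiquinone, Sqrdl, which oxidises sulfide, rose by 1.01 (adjusted p = 0.00128) and 0.57 (adjusted p = 0.0453). Etfa was higher in Tsc2Δpodocyte among treated samples. Of 16 carriers and import genes 1 rose untreated (Vdac2, 0.48, adjusted p = 0.00333). Of 22 mitochondrial ribosome genes Mrpl27 rose (0.29, adjusted p = 0.0477) while Mrpl3 (-0.29, adjusted p = 0.0117) and Mrpl9 (-0.43, adjusted p = 0.0221) fell. With quantile normalisation Mrpl27 no longer passed.

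Regulators outside the set were counted beside the same shares, 10.3% of all tested genes higher and 9.20% lower untreated. Of 17 further regulators of mitochondrial biogenesis tested, 6 fell in untreated Tsc2Δpodocyte cells and Ppard, a nuclear receptor gene, rose (0.53, adjusted p = 0.00861). Those that fell were Pprc1, the third PGC-1 family member (-0.45, adjusted p = 0.00681), the deacetylase gene Sirt1 (-0.44, adjusted p = 0.0133), Creb1, Hcfc1, Nrip1 and Gabpb1, a subunit of GABP. Among treated samples Pprc1 was lower in Tsc2Δpodocyte (-0.33, adjusted p = 0.0474), beside 4.97% of all tested genes. Eif4ebp1, a translational brake under mTORC1, was higher there (0.58, adjusted p = 0.00237), beside 6.20%. Of 15 genes of mitochondrial DNA copying, transcription and RNA, Lrpprc (0.37, adjusted p = 0.00718) and its partner Slirp (0.33, adjusted p = 0.00721), which stabilise mitochondrial messenger RNA, rose untreated and 0 passed after rapamycin. No gene of any of these lists passed in the interaction.

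Markers of other cells of the glomerulus and kidney were read beside these values. The shares over all tested genes were 10.3% higher and 9.20% lower untreated, and 6.20% and 4.97% after rapamycin. Endothelial markers ranged widely among untreated samples (summed level 3.22 to 6.01 in Tsc2Δpodocyte and 2.89 to 6.41 in Tsc2flox/flox) and less after rapamycin (2.35 to 3.06 and 2.44 to 3.70), and 0 of 8 passed by genotype. Between rapamycin and untreated groups their median was -1.63 in Tsc2flox/flox, with 8 below 0, and -1.57 in Tsc2Δpodocyte, with 7 below 0. Over all tested genes these medians were 0.00 and 0.01, and 0 of the 8 markers passed. Of 8 macrophage markers Cd68 (1.03) and Cd14 (0.60) rose untreated, with sums of 3.57 to 4.03 against 3.16 to 4.07, and after rapamycin the sums were 3.57 to 4.00 against 3.60 to 4.21. Untreated, 7 of these markers were above 0 and 1 below (median 0.62), and after rapamycin 2 were above and 6 below (median -0.08). Of 7 mesangial and smooth muscle markers Des (1.76) and Itga8 (1.42) rose untreated, with sums of 9.17 to 9.67 against 9.13 to 9.35, and Des (1.28) after rapamycin, with sums of 9.20 to 9.38 against 9.02 to 9.29. All 7 mesangial markers were above 0 untreated (median 0.55), and after rapamycin 4 were above and 3 below (median 0.14). Of 7 parietal epithelial markers Pax8 (-1.47) and Cdh6 (-1.64) fell untreated, with sums of 5.73 to 6.97 against 6.47 to 7.43. Both also fell after rapamycin (-1.14 and -1.90), with sums of 6.52 to 8.20 against 6.74 to 8.43. All 7 parietal markers were below 0 in both comparisons, with medians of -0.70 untreated and -0.50 after rapamycin. Of 9 proximal tubule markers, a cell rich in mitochondria, 5 were above background on no array, and the sum of the 4 tested was 0.25 to 1.11 in untreated Tsc2Δpodocyte and 0.96 to 1.21 in Tsc2flox/flox samples, with Lrp2 lower (-1.57, adjusted p = 0.00489). After rapamycin the sum was 0.25 to 0.46 against 0.91 to 1.42, without overlap, and Lrp2 was lower again (-1.84, adjusted p = 0.00516). Of 5 thick limb and distal tubule markers 4 were above background on no array and the other did not pass. Of the 10 podocyte markers Plce1 rose in both comparisons (1.80 and 1.65) and Podxl after rapamycin (1.18). The podocyte markers did not move together. Untreated, 6 were above 0 and 4 below (lowest -1.07), and after rapamycin 7 were above and 3 below (lowest -0.95). The part of these cells in the members' values was not tested.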

How the data were processed

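Gene expression was measured on 16 Agilent SurePrint mouse arrays, 1 per RNA sample, with 4 arrays in each of 4 groups named in the labels. The deposited files hold scanner intensity per spot, which the authors extracted with Agilent Feature Extraction 10.7.3.1 (background subtracted, not normalised between arrays), as well as deposited log2 values per probe, made by the authors with GeneSpring, which correlated at 0.9997 or more with the values made here.

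Control and outlier spots were left out (1344 outlier spots), spots of 1 probe were averaged, and each log2 processed intensity was set against the 75th percentile of its array by subtraction. Of 56605 probes, 32994 matched 1 of 22911 RefSeq genes by accession. A probe was tested if some group had it well above background on each of its 4 arrays (27579 probes, 14094 genes, each gene by its brightest probe). The number of arrays, not a read depth, limits the precision. limma 3.58.1 in R 4.3.3 fitted 4 group means, and p-values were adjusted by Benjamini-Hochberg over all tested probes. A gene was called at an adjusted p under 0.05 whatever its fold. Single members were also compared by a two-sided exact permutation test over samples. The code was tested on simulated data.

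The members and lists were chosen with earlier results of these data known. Values are given for the 5 regulators and, in each complex, for the members with the smallest p in each comparison, and of each list for up to 3 genes with the smallest p, with further genes named where they passed a test. Alternatives were quantile normalisation, median centring, normexp background correction (offset 50, on the median signal, since no mean signal is in the files), other filters, the deposited log2 values, the mean of a gene's probes, a trended and robust fit, the methods' t-test, a fold of at least 1.5, a replicate block and omission of each array. The comparison with the brightest 20% of genes was chosen after seeing the data. Replicate numbers were not used to pair the samples in the main fit. The mitochondrially encoded subunits were not analysed here, and probe sequences were not used here, so that cross-hybridisation with pseudogenes was not tested.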

Additional observations from a re-analysis of the deposited data

Results flagged for a closer look

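In 11 of 208 sets of 4 samples, 1 sample lay far from the other 3 by Dixon's test, which chance gives in about 1 in 20 sets (10.4 of 208). On the log2 scale Ndufa1 read 4.70 in Tsc2flox/flox + Rapamycin replicate 1 (others 5.35 to 5.45), Ndufa5 read 5.56 in Tsc2flox/flox replicate 2 (others 5.34), and Ndufa8 read 2.96 in Tsc2flox/flox replicate 4 (others 3.22 to 3.26). Ndufb10 read 5.32 in Tsc2flox/flox + Rapamycin replicate 2 (others 5.38), Uqcrc2 read 4.87 in Tsc2flox/flox + Rapamycin replicate 1 (others 4.72 to 4.74), and Ndufs3 read 4.52 in Tsc2Δpodocyte + Rapamycin replicate 2 (others 4.68 to 4.69). Yy1 and Cox6a2 read 2.52 and -3.59 in Tsc2flox/flox replicate 1, where the others lay at 2.76 to 2.80 and at -4.34 to -4.25. Tsc2Δpodocyte replicate 2 stood apart for Cox7a1, at 1.76 (others 0.73 to 0.81), and for Ndufa4l2, at 2.67 (others -0.18 to 0.10). Tsc2 itself read 2.73 in Tsc2Δpodocyte + Rapamycin replicate 2 (others 2.05 to 2.09).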

How the results depend on the processing

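The number of members higher in untreated Tsc2Δpodocyte cells, 12, was 5 with quantile normalisation, 3 without a filter on dim probes, 4 when only the 8 arrays compared were fitted, 6 by the methods' t-test after Benjamini-Hochberg adjustment and 25 before it, and 2 with a fold of at least 1.5. It was 3 to 13 when 1 array was left out. The count of 1 lower was 0 with quantile normalisation, median centring, no filter, the deposited values and the fold limit, while the unadjusted t-test gave 2 and omission of an array 0 to 2. After rapamycin, the 10 higher members were 4 without the filter, 4 with only 8 arrays, 6 and 21 by the t-test with and without adjustment, 1 with the fold limit, and 5 to 12 when 1 array was left out. By limma at an unadjusted p under 0.05, 17 members were higher and 2 lower untreated, beside 17.4% and 17.0% of all tested genes. Quantile normalisation called 10.6% of all tested genes higher untreated, and the fold limit 6.18%. In this section shares over all tested genes are not given for the t-test, the changed filters or the smaller fits. Those counts show only how the calls moved. The cause of these changes was not tested.

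The interaction count of 0 higher was 3 with normexp and stayed 0 when any 1 array was left out. In Tsc2flox/flox cells the rapamycin counts of 0 were 4 lower with normexp, 1 lower (Cycs) with a trended and robust fit, and 2 higher and 13 lower by the unadjusted t-test. In Tsc2Δpodocyte cells the 1 higher member was 2 with quantile normalisation, 3 with normexp, 6 by the unadjusted t-test and 0 without the filter, with only 8 arrays, by the adjusted t-test, with the mean of probes and with the fold limit. The 1 lower member was 5 with normexp, 2 when probes had to be well above background on all 16 arrays, 3 with the trended fit, 8 by the unadjusted t-test and 0 with quantile normalisation, median centring, no filter, only 8 arrays, the adjusted t-test and the fold limit. Both were 0 to 1 when 1 array was left out. In that comparison quantile normalisation called 2.06% of all tested genes higher and 1.06% lower, and normexp 5.51% and 4.12%. By limma at an unadjusted p under 0.05, 4 members were higher and 9 lower there, beside 13.1% and 11.0% of all tested genes.

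With the replicate number as a block, 8 members were higher and 1 lower untreated, 7 were higher after rapamycin, and the 1 higher and 1 lower member of the rapamycin comparison in Tsc2Δpodocyte cells became 0 and 0. Over all groups samples of the same number did not deviate together (24 pairs, correlations -0.33 to 0.46, median -0.03), so the numbers do not show pairing. Between genotypes these correlations were -0.0055, -0.23, -0.30 and -0.05 untreated, and -0.02, 0.46, 0.17 and 0.29 after rapamycin. Pairs of different number ran from -0.47 to 0.44. No member called in a comparison changed sign in any setting. Of the 46 members 11 untreated and 11 after rapamycin changed sign with quantile normalisation and 5 and 5 with normexp, and 0 of these were called before or after the change. Of the values given in the text, with quantile normalisation Cycs was -0.037, Cox4i1 -0.035, Atp5o -0.030 and Ndufa4 -0.011 untreated. After rapamycin Ndufb9 was -0.0091, Ndufb10 -0.021, Uqcrq -0.0026, Cox7b -0.017, Uqcrc1 -0.042, Sdhb -0.023, Atp5b -0.069 and Cox4i2 0.019. With normexp Cycs was -0.062 and Uqcrc1 -0.022 untreated, and Cox7b was -0.18, Cox6a1 -0.0078, Atp5b -0.086 and Yy1 -0.16 after rapamycin. The interaction of Atp5o was -0.054 on the mean of its probes. With 1 array left out, the value after rapamycin ran from -0.0048 to 0.17 for Cox7b, -0.020 to 0.065 for Uqcrc1 and -0.13 to 0.10 for Atp5b.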
